A study of Mus musculus with 141 samples.

Results

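Sult1e1 encodes the estrogen sulfotransferase, and its mRNA differed widely between the inbred strains of the Hybrid Mouse Diversity Panel (HMDP) in male inguinal white adipose tissue (iWAT), the main subcutaneous fat pad of the mouse. The 73 libraries labelled male, without the library of mouse number 1269 (NZW/LacJ), were ranked by the TPM (transcript level scaled for length and library size) of Sult1e1. The 18 highest (high Sult1e1) were compared with the 18 lowest (low Sult1e1) over all other genes, so that 36 libraries entered the comparison, of 74 labelled male and 67 labelled female in the series. These sets were therefore chosen by measured Sult1e1, and its own values below are a description. All mice ate chow until 8 weeks of age, then a diet rich in fat and sucrose for 8 weeks, and tissue was taken after a 4-hour fast. The sets differ in strain and in no treatment, with 1 library per strain and sex, so a strain cannot be told apart from the mouse that stood for it. The high set held 9 BXD/RwwJ strains, 1 BXD/TyJ strain and 8 classical inbred strains. The low set held 2 BXD/RwwJ strains, 7 BXD/TyJ strains, 6 classical strains, 2 AXB or BXA strains and 1 CXB strain. One of the BXD/TyJ strains of the low set is BXD24/TyJ-Cep290<rd16>/J, whose name gives the rd16 allele of Cep290, and one of its classical strains, BTBR T<+> tf/J, is named for the alleles T<+> and tf. The BXD lines are recombinant inbreds of C57BL/6J and DBA/2J, and the suffixes RwwJ and TyJ name lines derived by different laboratories.

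Cytosolic sulfotransferases transfer a sulfonate group from the donor PAPS to hormones and drugs. SULT1E1 prefers estrogens, and a sulfonated estrogen no longer activates the estrogen receptor, so the enzyme lowers the active hormone in the cell that holds it. In male mice the enzyme is best known from the Leydig cells of the testis, and it is also expressed in white fat and its preadipocytes. Sult1e1 (ENSMUSG00000029272) lies on the minus strand of chromosome 5 at chr5:87575969-87591594 (GRCm38).

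The 250 bases before the RefSeq transcription start are shown for Sult1e1 and for C7, the gene that differed most clearly between the sets, to give the sequence context of these 2 genes (GRCm38.p6, minus strand, chr5:87591612-87591861 and chr15:5063774-5064023). Capitals mark AGGTCA, the half-site of many nuclear receptors, AGAACA, a half-site of the glucocorticoid receptor, and TATAAA, each on either strand.
Sult1e1: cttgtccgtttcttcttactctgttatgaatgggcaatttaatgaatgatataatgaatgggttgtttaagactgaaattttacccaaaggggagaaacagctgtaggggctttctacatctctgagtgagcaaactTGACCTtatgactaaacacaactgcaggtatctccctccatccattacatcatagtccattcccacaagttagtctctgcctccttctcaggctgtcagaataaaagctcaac
C7: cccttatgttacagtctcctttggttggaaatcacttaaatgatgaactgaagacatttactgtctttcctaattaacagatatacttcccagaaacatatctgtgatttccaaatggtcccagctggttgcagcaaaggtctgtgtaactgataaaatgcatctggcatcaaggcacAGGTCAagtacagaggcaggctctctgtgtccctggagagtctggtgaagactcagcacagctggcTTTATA
In the Sult1e1 window the letters TGACCT, which read as the nuclear receptor half-site on the opposite strand, began at base -113, counted from the start. In the C7 window AGGTCA began at base -72 and TTTATA at base -6. AGAACA was in neither. Over the 32851 RefSeq promoter windows of this length, AGGTCA was present in 14.02%, AGAACA in 16.1% and TATAAA in 12.4%.

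Estimated counts per library summed to between 26333120 and 46602779 in the high set and to between 20568201 and 78562648 in the low set. The adipocyte genes that define the tissue were abundant in both, with Adipoq between 1149 and 3382 CPM (counts scaled to library size with TMM factors) over the 36 libraries. The level of Ddx3y matched the labels in the libraries compared. Ddx3y, a Y-linked gene, was at 78.2 to 229 CPM in the 36 male libraries and at 2.35 CPM or less in the 30 female libraries used below. The left-out NZW/LacJ library labelled male had 0.265 CPM of Ddx3y and no Sult1e1 count, and the BXD69/RwwJ library labelled female had 201 CPM. Summed over 4 Y-linked genes, the 36 male libraries had 177 to 535 CPM, and the highest library labelled female, BXD34/TyJ, had 1078 CPM with 3.03 CPM of Ddx3y. None of these libraries entered the comparison of the sets or of the sexes. The share of counts from mitochondrially encoded genes was 5.54 to 11.4% in the high set and 6.42 to 25.1% in the low set, where CXB11/HiAJ, also the deepest library, was highest.

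Sult1e1 ranged over a continuous gradient in males, without a wide gap at either edge of the sets. In the high set its lowest, median and highest values were 16.9, 27.8 and 41.4 TPM, in the 37 middle libraries 3.47, 7.03 and 14.3 TPM, and in the low set 1.09, 2.57 and 3.40 TPM. SM/J was highest with 41.4 TPM (892 counts), followed by BXD84/RwwJ with 38.1 TPM, BXD8/TyJ with 37.3 TPM, BALB/cJ with 36.6 TPM and KK/HlJ with 35.4 TPM. NZB/BlNJ was lowest with 1.09 TPM (18 counts), and AXB5/PgnJ had 1.13 TPM and FVB/NJ 1.20 TPM. At the upper edge BXD87/RwwJ with 16.9 TPM was inside and BXA7/PgnJ with 14.3 TPM outside, and at the lower edge BXD73/RwwJ with 3.40 TPM was inside and BXA11/PgnJ with 3.47 TPM outside. The values near the lower edge were thus almost equal.

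**Figure D1:**
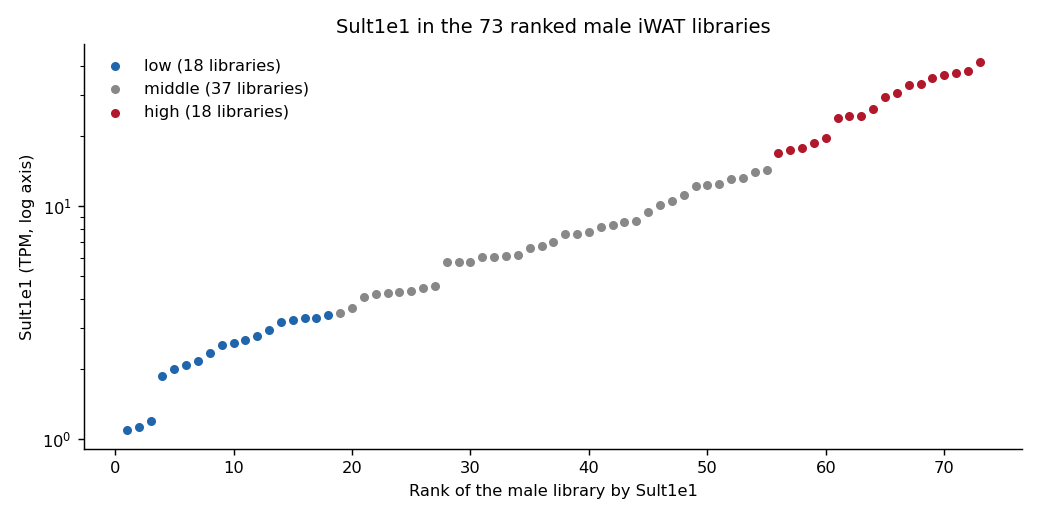
Sult1e1 in TPM (log axis) against the rank of the library for the 73 ranked male libraries, 1 point per library, coloured by set. The values rise steadily from 1.09 TPM to 41.4 TPM, and the colours show the 18 low, 37 middle and 18 high libraries.

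Across all other genes, the high set had more C7, Gdf10 and Fgl2, and less Elovl3 and less of 9 subunits of mitochondrial respiration. Of these, C7 alone kept its call in all 23 alternative analyses. Gdf10 kept it in 22 of 23, Fgl2 in 20 of 23 and Elovl3 in 18 of 22. None of the 9 subunits was called when Sult1e1 was ranked by CPM. In the high set 0.676% of the 15979 genes tested were higher and 57, or 0.357%, were lower at an adjusted p under 0.05 (edgeR quasi-likelihood test, Benjamini-Hochberg adjustment). At an unadjusted p under 0.05, 1036 were higher and 1798 lower, and the median log2 fold change of all genes was -0.02. Of the calls 65.5% were thus higher, against 83.5% when counts were scaled by library totals (212 higher and 42 lower). With limma on log2(TPM + 1), where the median of all genes was 0.19, 1921 genes were called higher and 7 lower.

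C7, a component of the membrane attack complex of complement, was the one called gene whose sets did not overlap. Its lowest, median and highest levels were 25.4, 65.2 and 120 CPM in the high set, 4.42, 26.1 and 83.01 CPM in the middle libraries and 4.55, 11.4 and 24.9 CPM in the low set. Every high library was above every low one, although the margin between SEA/GnJ, lowest of the high set, and PL/J, highest of the low set, was narrow. The log2 fold change was 2.44 ± 0.22 (SE, adjusted p = 4.4e-09, edgeR). C7 was called in all 23 alternative analyses, with an adjusted p of at most 0.0014 in them (edgeR, DESeq2 or limma). The gene lies on another chromosome than Sult1e1, and none of the 47 genes tested within 5 Mb of Sult1e1 was called.

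Secreted factors and receptors were among the other higher genes with the smallest p. Gdf10, a ligand of the TGF-beta superfamily, ranged from 14.9 to 55.3 CPM (median 33.9) in the high set and from 7.02 to 27.5 CPM (median 16.2) in the low set, and 14 of 18 high libraries were above the highest low one. Its log2 fold change was 1.18 ± 0.16 (SE, adjusted p = 9.8e-05, edgeR). Fgl2, a secreted fibrinogen-like protein with prothrombinase and immune-regulating roles, had medians of 48.7 and 31.2 CPM, with 11 of 18 high libraries above the low set. Lgi2, a secreted leucine-rich repeat protein, had medians of 17.1 and 6.56 CPM and a log2 fold change of 1.34 ± 0.21 (SE, adjusted p = 0.00063, edgeR). Procr, the receptor of protein C, had medians of 25.8 and 13.1 CPM. Slc16a9, a monocarboxylate transporter family member, had medians of 12.5 and 4.95 CPM, and 13 of 18 high libraries were above the low set. Egfr, the epidermal growth factor receptor, had medians of 104.5 and 63.6 CPM, and Csf1, the growth factor of macrophages, of 68.9 and 47.4 CPM. These differences were between 0.54 and 1.34 on the log2 scale, smaller than that of C7, and the ranges of the sets overlapped in each. Ltbp1, which holds latent TGF-beta in the matrix, differed by 0.60, and Ms4a4d by 0.55. Col4a4 and its neighbour Col4a3, which encode chains of basement membrane collagen, were higher by 0.99 and 0.75 on the log2 scale, and 12 of 18 high libraries had more Col4a4 than any low library.

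**Figure D2:**
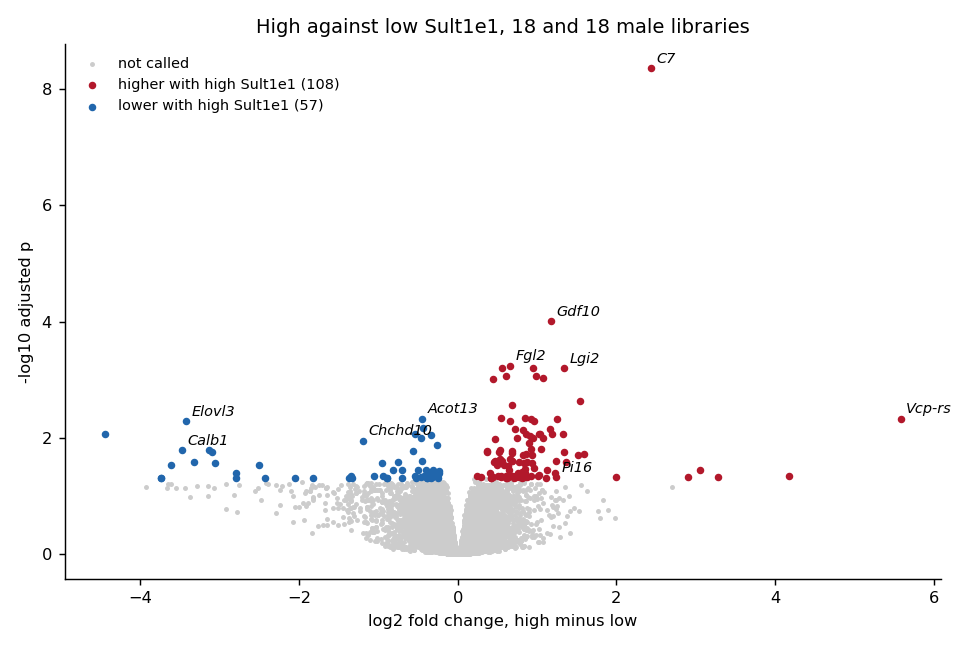
Log2 fold change of each of the 15979 genes tested (high minus low Sult1e1, 18 against 18 male libraries) against -log10 of the edgeR adjusted p. C7 stands apart at a log2 fold change of 2.44, and the median called gene lies at 0.82 on the higher and at -0.70 on the lower side.

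Il1r1, Il1rl2 and Il1r2, neighbouring genes of the interleukin-1 receptor family on chromosome 1, were higher in the high set. The group was picked out after their values were seen. Il1r1, the signalling receptor (chr1:40225080-40317257), had a median of 50.5 CPM in the high and 37.8 CPM in the low set, with a log2 fold change of 0.45 ± 0.07 (SE). Il1rl2, the interleukin-36 receptor (chr1:40324610-40367562), had medians of 29.1 and 13.7 CPM. Il1r2, the decoy receptor (chr1:40074079-40125231), had medians of 8.38 and 2.66 CPM. The next 3 genes of the family, Il1rl1, Il18r1 and Il18rap, had log2 differences of 0.27, 0.28 and 0.31 and did not pass the test (adjusted p = 0.52, 0.82 and 0.60, edgeR).

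The 5 called genes with the largest positive fold change were each carried by 1 to 3 strains. Vcp-rs, an X-linked locus named as a sequence related to Vcp, had a log2 fold change of 5.59 ± 1.05 (SE). It had 284 CPM in KK/HlJ, 259 CPM in SEA/GnJ and 201 CPM in NOD/ShiLtJ, and at most 1.51 CPM in the other high libraries. Its levels in the low set were 0.200 to 1.74 CPM, but 3 middle strains, AKR/J, CE/J and SJL/J, had 295, 269 and 243 CPM. Rpl17-ps5 had 217 CPM in I/LnJ and at most 1.33 CPM elsewhere in the high set, and Ftl1-ps1 had 584 CPM in 129X1/SvJ and 347 CPM in I/LnJ against a median of 5.18 CPM. Both are pseudogenes, whose estimated counts can be exchanged with those of their parent genes. The same caution applies to Vcp-rs as a related sequence. AC133509.1 rested on I/LnJ (68.8 CPM) and Tcerg1l on NOD/ShiLtJ (73.8 CPM). The fold changes of these genes are therefore not typical of the high set, whose medians for them differed from those of the low set by less than 1 CPM.

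Among the lower genes with the smallest p were several that encode mitochondrial proteins. Acot13, a mitochondrial acyl-CoA thioesterase, had medians of 20.5 CPM in the high and 27.2 CPM in the low set and a log2 fold change of -0.45 ± 0.08 (SE, adjusted p = 0.0046, edgeR). Cox17, the copper chaperone of cytochrome c oxidase, had medians of 46.3 and 59.4 CPM, and 10 of 18 low libraries were above the highest high one. Uqcrh, a subunit of complex III, had medians of 135.5 and 180 CPM, and Cox6c, a subunit of complex IV, of 140.6 and 178 CPM. Chchd10, a protein of the mitochondrial intermembrane space, was at 7.77 to 43.2 CPM (median 18.5) in the high set and at 12.6 to 121 CPM (median 38.7) in the low set. Hspe1, the mitochondrial chaperonin HSP10, had medians of 66.3 and 87.6 CPM, and Rmnd1, needed for mitochondrial translation, of 20.3 and 24.8 CPM. Tma7, Uchl5, a proteasome-bound deubiquitinase, and Rmnd1 differed by -0.53, -0.26 and -0.33 on the log2 scale. The ranges overlapped for each of these genes.

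Of 73 tested nuclear OXPHOS (oxidative phosphorylation) subunits, 9 were lower and none higher, with raw p-values under 0.05 in 65 of them. Over all 15979 genes 0.357% were called lower, and 1798 were lower at a raw p under 0.05 (edgeR). The 9 were Uqcrh, Uqcr10, Cox6c, Cox5a, Cox7c, Atp5l, Atp5h, Ndufa6 and Ndufc1. All 73 had negative log2 fold changes, from -0.51 to -0.08 with a median of -0.33, against the median of -0.02 over all genes, but with limma on log2(TPM + 1) 59 of 73 were negative. The 13 mitochondrially encoded genes were all negative with a median of -0.51, and none passed (lowest adjusted p = 0.051, edgeR). For example mt-Nd4 had medians of 10194 and 12823 CPM in the high and the low set. The TPM total that ranked Sult1e1 includes the mitochondrially encoded genes, so a library rich in them has a lower Sult1e1 TPM by arithmetic. CXB11/HiAJ was in the low set with 2.16 TPM but had 3.21 CPM of Sult1e1. Some middle libraries had less, such as AXB19a/PgnJ with 4.25 TPM and 2.18 CPM. The sets were thus not chosen independently of these genes, and how far this lowered both lists was not tested. Genes of 1 list are not independent of each other. The calls depended on how Sult1e1 was ranked and on which libraries were kept. Without CXB11/HiAJ 2 of the 73 were called lower, and without the 6 libraries richest in muscle markers none was. The latter fit had 30 libraries, and fewer libraries also make a call harder to reach. Ranked by TMM-scaled CPM instead, which kept 17 of the 18 high and 15 of the 18 low libraries, none of the 73 subunits passed, 67 were negative and their median was -0.14, and the mitochondrially encoded genes had a median of -0.10. With that ranking 15 genes in all were higher and 2 lower. The mitochondrially encoded share of counts was then 5.51 to 12.8% in the low set.

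Of 19 tested genes of brown and beige adipocytes 3 were lower, Elovl3, Slc27a2 and Pank1, and none higher, with a median of -0.68 and 17 negative, but 12 negative and 2 called higher with limma on log2(TPM + 1). The share called lower over all genes was 0.357%. Elovl3 kept its call in 18 of 22 alternative analyses, Slc27a2 in 11 of 22 and Pank1 in 8 of 23. Elovl3, a fatty acid elongase induced in brown fat, was at 0.0341 to 3.11 CPM (median 0.507) in the high set and at 0.0896 to 40.9 CPM (median 2.91) in the low set. Its log2 fold change was -3.43 ± 0.65 (SE, adjusted p = 0.0052, edgeR), and 9 of 18 low libraries were above every high library. Slc27a2, a very long chain acyl-CoA synthetase, reached 65.5 CPM in AXB5/PgnJ and 12.2 CPM in PL/J, with medians of 0.304 and 0.834 CPM. Ucp1, the uncoupling protein of brown fat, had medians of 7.58 and 24.0 CPM with wide ranges in both sets, and its log2 difference of -1.14 ± 0.78 (SE) did not pass (adjusted p = 0.47, edgeR). Cidea (-1.06) and Cox8b (-1.15) did not pass either (adjusted p = 0.076 and 0.059, edgeR).

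Among the 5 lower genes with the largest fold change, Elovl3 was spread over many libraries, while Calb1, Olfr729 and Mup9 rested on 1 or 2 libraries and Slc27a2 was highest in a few. Calb1, a calcium-binding protein, reached 74.4 CPM in the male library of PL/J and at most 1.52 CPM in the other 17 low libraries, and its medians were 0.437 and 0.557 CPM. BXA24/PgnJ, a middle strain, had 34.5 CPM. Olfr729 reached 204 CPM in the same library. Mup9, a major urinary protein gene whose reads cannot be told apart well from its close paralogs, had 339 CPM in AXB5/PgnJ and 117.02 CPM in CXB11/HiAJ. Nr1i3, the constitutive androstane receptor and the one called member of 17 tested steroid and nuclear receptors, had 14.5 CPM in AXB5/PgnJ and 12.05 CPM in PL/J and at most 0.729 CPM elsewhere in the low set, against 0.0778 to 0.631 CPM in the high set.

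Genes of sulfonation and sex steroid metabolism are described next as the surroundings of the enzyme. With 0.676% of all genes called higher and 0.357% lower, lists of this size would hold few calls at the background share. None of 12 tested genes for synthesis, transport and turnover of PAPS was called, with a median of 0.00. Papss1 and Papss2, the synthases of PAPS, had medians of 50.4 and 97.7 CPM in the high set and of 49.2 and 86.5 CPM in the low set. Of 13 cytosolic sulfotransferases 3 were expressed highly enough to be tested, and none was called. Sult1a1, the phenol sulfotransferase, had medians of 165 and 205 CPM (log2 difference -0.21 ± 0.13, SE), Sult5a1 of 5.89 and 4.24 CPM (0.48 ± 0.15, SE) and Sult2b1, the cholesterol sulfotransferase, of 0.431 and 0.621 CPM. None of 15 sex steroid synthesis and inactivation genes was called, and the smallest adjusted p was that of Hsd17b12 (0.10, edgeR), with medians of 242 and 323 CPM. Esr1 and Nr3c1, receptors of estrogens and glucocorticoids, did not pass. Esr1 had medians of 31.6 and 39.5 CPM and Nr3c1 of 202 and 217 CPM. None of 10 estrogen-responsive, 9 androgen-responsive and 17 glucocorticoid genes passed, with medians of -0.06, 0.18 and 0.18. Prlr, the prolactin receptor, had a log2 difference of -1.36 ± 0.40 (SE, adjusted p = 0.070, edgeR). Tph2, Lipf and Tm4sf19 had medians of 27.3, 5.76 and 0.942 CPM in the high and 15.8, 3.11 and 0.578 CPM in the low set, with ranges that overlapped widely.

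Stromal genes lay mostly on the higher side, where 0.676% of all genes were called. Of 14 progenitor and fibroblast markers 2 were higher: Pi16, a marker of adventitial progenitors, with medians of 92.3 and 35.8 CPM (log2 fold change 1.24), and Pdgfra, the platelet-derived growth factor receptor of fibroblasts, with medians of 90.6 and 56.2 CPM (0.50). Pi16 kept its call in 14 of 23 alternative analyses and Pdgfra in 11 of 23. The median of the list was 0.37, and the other 12 did not pass, Dcn and Cd34 with 0.43 and 0.52 among them. Of 24 extracellular matrix genes Timp2, an inhibitor of metalloproteinases, was called (0.63), and 21 were positive with a median of 0.39. Further called genes outside these lists, named after their values were seen, were Cd248, Scara5, Ogn, Aebp1 and Lama2. The summed progenitor markers were 1176 to 2600 CPM in the high set and 987 to 3230 CPM in the low set. In bulk tissue, more cells of a type and more RNA per cell cannot be told apart. With the mean log2 CPM of these markers as a term, 10 genes were higher and 10 lower. C7 kept a log2 fold change of 2.06.

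None of 17 adipocyte identity, 19 de novo lipogenesis, 19 fatty acid uptake and triglyceride synthesis, 20 lipolysis and fatty acid oxidation or 20 branched-chain amino acid catabolism genes was called, with medians of -0.22, -0.34, -0.30, -0.25 and -0.14. Macrophage markers had a median of 0.49, were positive in 16 of 17 and had none called, and their sum was 992 to 5447 CPM in the high and 423 to 3312 CPM in the low set. None of the tested lymphocyte, mast cell, endothelial, mural, Schwann cell, muscle, skin, mammary or reproductive tract markers was called. Only 2 of 9 mammary, 5 of 10 skin and 3 of 10 reproductive tract markers were tested, however. Svs4 of the reproductive tract did not pass the filter on low counts, and reached 24.9 CPM in the high set and 1.75 CPM in the low set. Skeletal muscle markers summed to over 300 CPM in 3 high and 3 low libraries, up to 647 CPM in SEA/GnJ and 1680 CPM in BXD11/TyJ. Without these 6 libraries 76 genes were higher and 7 lower. Myh4 and Actn3 of muscle did not pass the filter on low counts, being low in most libraries, but reached 527 and 68.5 CPM in the low set. Mammary epithelial markers summed to at most 31.2 CPM in the high set and up to 316 CPM in the low set. Krt8, Krt18, Krt14 and Krt5 did not pass the filter, and Krt8 and Krt18 reached 67.4 and 96.2 CPM in the low set and 4.19 and 7.80 CPM in the high set. The part of these markers in the results was not tested.

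The origin of the strains moved with the sets. With the strain family as a term and the BXD strains divided into TyJ and RwwJ, a fit chosen after the imbalance was seen, C7 alone was called (log2 fold change 2.23, adjusted p = 8.5e-06, edgeR) and no gene was lower. In that fit Gdf10 and Elovl3 had fold changes of 1.04 and -3.78, with adjusted p = 0.077 and 0.27 (edgeR). With the strain family alone 49 genes were higher and 14 lower. Among the 10 high and 9 low BXD strains, 11 were higher, C7 among them (2.51, adjusted p = 0.0014, edgeR), and 1 lower. With 1 library per strain, Sult1e1 level and strain origin cannot be fully told apart for any gene.

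The 37 middle libraries were in neither set, but the same ranking by Sult1e1 TPM chose them and bounded their range. Within them, where Sult1e1 spanned 3.47 to 14.3 TPM, 0 of 16995 genes had a called positive slope on log2(TPM + 1) of Sult1e1 (0%) and 0 a called negative one (0%), with 1024 and 988 at an unadjusted p under 0.05 (edgeR). Of the higher genes 47 (43.5%) had a positive slope, and of the 57 lower genes 12 had a negative one, while 42.1% of all genes tested in both had the same sign. A positive slope was found in 49.4% of all genes tested in both, but in 45 of the 57 lower genes (78.9%). The direction between the extremes was thus not more frequent within this range than for all genes. For the lower genes it was mostly reversed, though no slope was called. The slope of C7 was 0.44 (adjusted p = 0.49, edgeR) and that of Gdf10 0.07. Elovl3 had the lowest adjusted p in this range with its negative slope of -2.94 (adjusted p = 0.070, edgeR). It reached 276 CPM in SJL/J. The median slopes of the lists in the middle libraries were 0.03 for nuclear OXPHOS subunits and 0.03 for extracellular matrix genes. They were -0.17 for progenitor and fibroblast markers and -0.01 for macrophage markers. These lists thus did not keep their shift between the extremes, while the thermogenic genes had a negative median slope of -0.56.

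**Figure D3:**
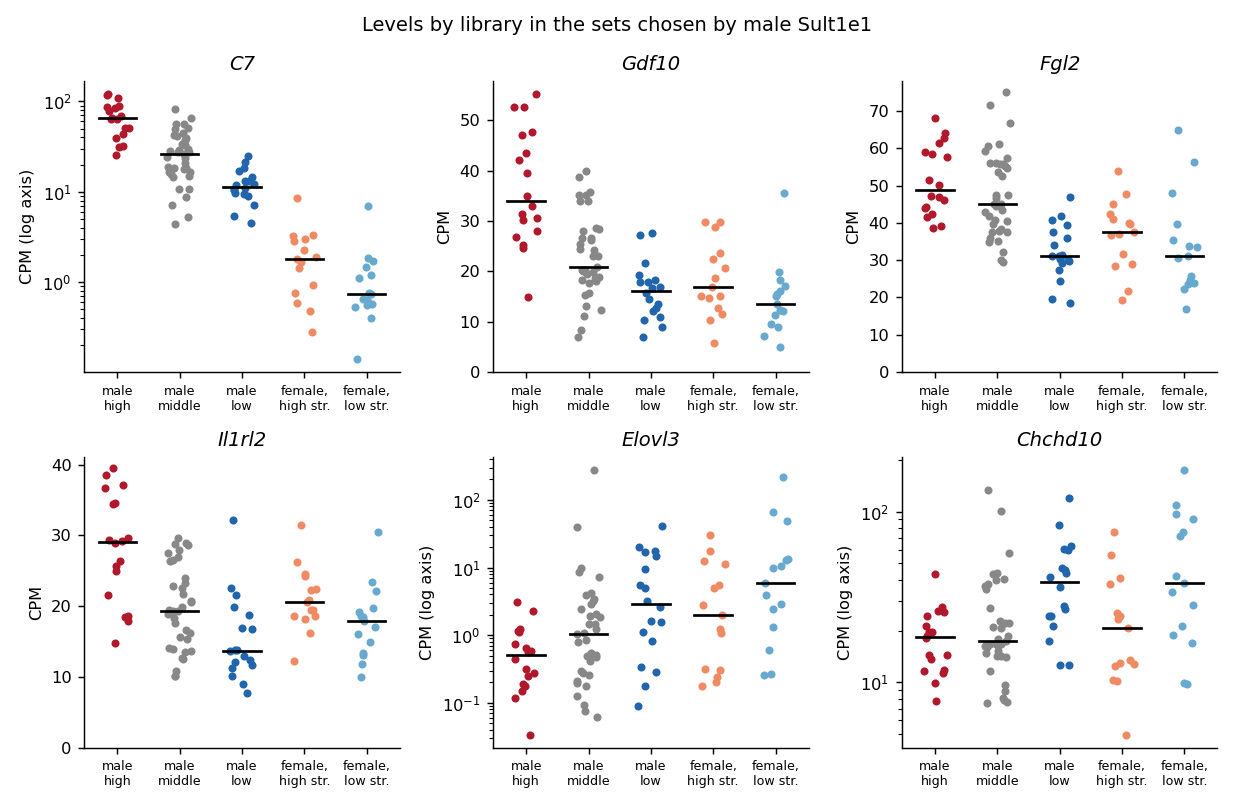
CPM of C7, Gdf10, Fgl2, Il1rl2, Elovl3 and Chchd10 in each library of the 3 male sets and of the female libraries of the high and low strains (1 point per library, bars at the medians, log axes where marked). C7 falls from medians of 65.2 to 26.1 and 11.4 CPM over the male sets, and lies at 8.44 CPM or below in every female library shown.

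Female libraries gave values that the ranking had not used. Sult1e1 itself was close to absent in females: 52 of 67 female libraries had no count, which allows up to 0.1 CPM at their median depth, and without BXD69/RwwJ the highest had 0.168 TPM. Over the 58 strains with both sexes, male libraries held 12833 counts of Sult1e1 and female libraries 24, or 6.81 and 0.0137 CPM. The ratio was 497, with a 95% exact interval of 334 to 775 that covers counting error only. Sult1e1 was higher in the male in 58 of 58 strains (log2 female minus male -8.61, adjusted p = 5.5e-39, edgeR with strain as a block). Females of the 15 high strains had 7 counts in all and those of the 15 low strains 4, and their mean log2(TPM + 1) differed by 0.02 (permutation test, two-sided, p = 0.39). Across the 58 strains the female value was not related to the male value (Pearson r = 0.15, permutation p = 0.28, and Spearman rho = 0.16, permutation p = 0.23, each 0.28 after adjustment over the 2). Without SM/J and BXD84/RwwJ, farthest from the male median, r was 0.10. A relation was not detectable at this depth.

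The other genes mostly had the same sign between the same strains in females. No gene passed there: 0 of 16553 were called higher (0%) and 0 lower (0%), with 875 and 1375 at an unadjusted p under 0.05 (edgeR), and 18 and 44 with DESeq2. Of the genes called in males and tested in females, all but 1 of the higher genes were positive and 55 of 55 lower genes were negative. Of all genes tested in both, 75.04% had the same sign. The median log2 fold changes in females were 0.39 for the higher and -0.49 for the lower genes, against 0.82 and -0.70 in males. These genes were picked for passing in males, which favours large male values. The sizes in the 2 sexes therefore cannot be compared from them. Male and female libraries of a strain come from different mice, but share the strain and its origin. C7 was at 0.280 to 8.44 CPM in females of high strains (median 1.81) and at 0.142 to 6.99 CPM in those of low strains (median 0.734), a log2 difference of 0.77 that did not pass (adjusted p = 0.46, edgeR). Females as a whole had far less C7 than males (log2 female minus male -4.12, edgeR with strain as a block). Among the strain-borne genes Vcp-rs had 252 CPM in the female of KK/HlJ, and Ftl1-ps1 had 511 CPM in that of 129X1/SvJ and 329 CPM in that of I/LnJ. Calb1 had at most 1.05 CPM in the female libraries of low strains, so that its high level in the male of PL/J was not seen in the female of that strain. The log2 differences of the nuclear OXPHOS subunits were negative in 73 of 73 in the females of high strains, with a median of -0.51, and the thermogenic genes had a median of -0.79. The progenitor and matrix lists had medians of 0.27 and 0.38.

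**Figure D4:**
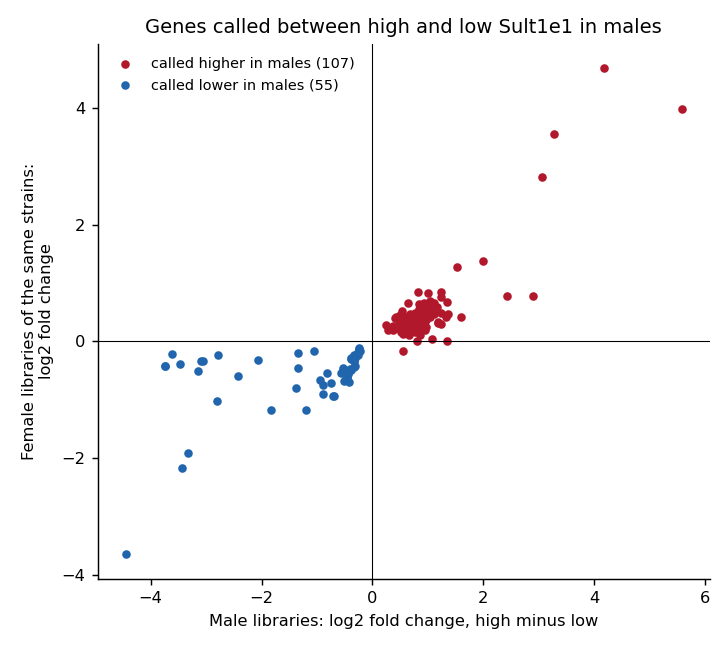
Log2 fold change between the high and low strains in males (x axis) and in the female libraries of the same strains (y axis) for the genes called in males and tested in females, coloured by their direction in males. All but 1 point lie in the quadrants of equal sign. Most female differences are smaller, in genes that were picked by their male values.

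**Figure D5:**
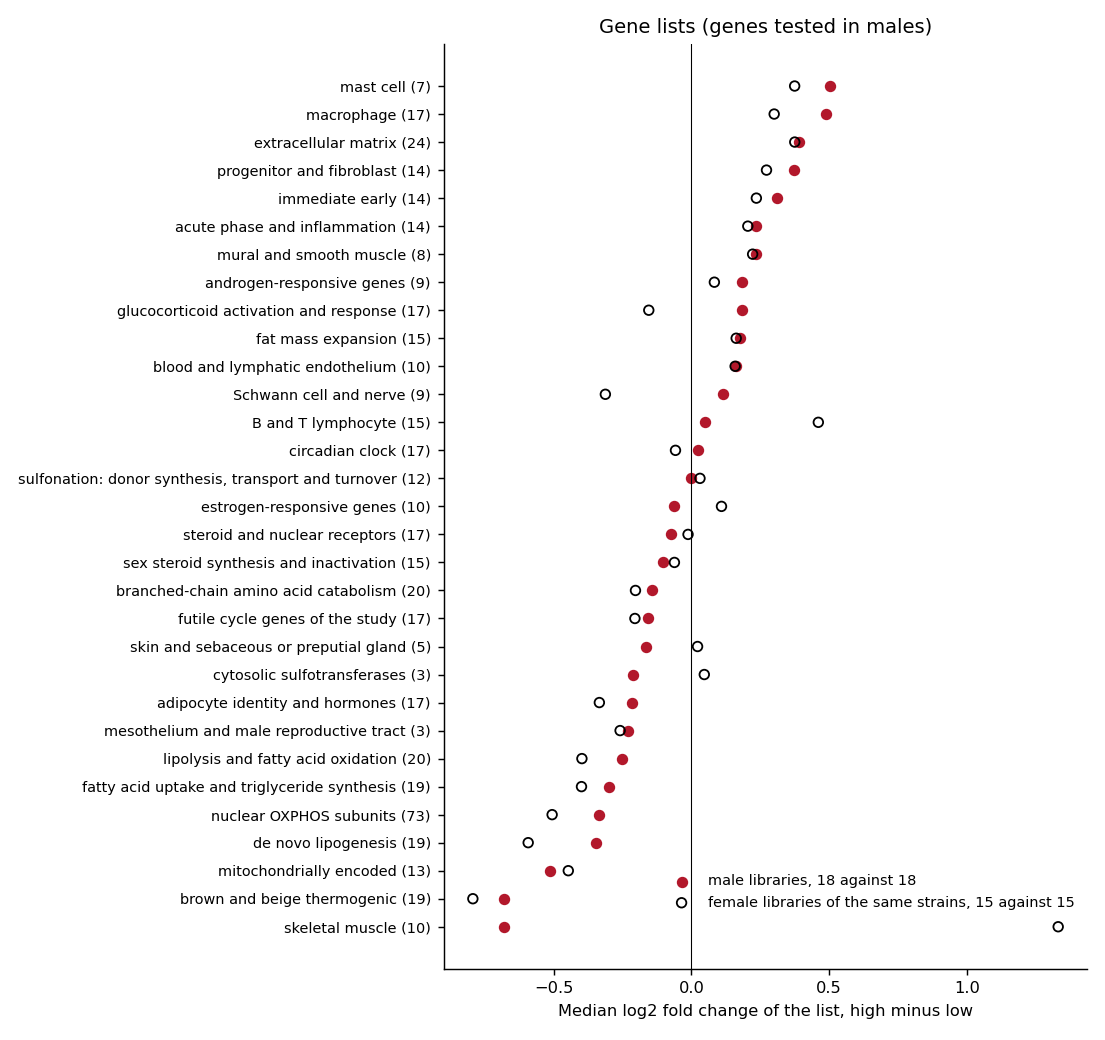
Median log2 fold change of each gene list with at least 3 genes tested, other than the Y-linked check (high minus low) in male libraries (filled) and in the female libraries of the same strains (open), with the number of genes tested in males in brackets. Nuclear OXPHOS subunits (-0.33 and -0.51) and thermogenic genes (-0.68 and -0.79) lie on the negative side in both sexes, while skeletal muscle markers lie at -0.68 in males and 1.33 in females.

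Of the genes called in males, 45 of the higher genes were also male-biased and 24 female-biased over the 58 strains, and of the 57 lower genes 2 were male-biased and 14 female-biased (adjusted p under 0.05, edgeR with strain as a block). Over all 15950 genes tested in both fits, 5159 were male-biased and 4547 female-biased. The female-biased shares of the higher and of the lower genes were no larger than that of all genes. Whether they passed or not, 60.7% of the higher and 38.6% of the lower genes had more RNA in males, against 49.9% of all genes. Gdf10, Lgi2, Col4a4 and Egfr were male-biased by 0.57, 1.09, 1.71 and 0.35 on the log2 scale, Ltbp1 was female-biased by 0.25, and Fgl2 did not pass (adjusted p = 0.052, edgeR).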

How the data were processed

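Gene expression was measured by mRNA sequencing of iWAT from HMDP strains, with stranded paired-end libraries. Estimated counts and TPM were deposited by the authors, who quantified reads with kallisto 0.46.1 against an mm10 (GRCm38) transcriptome and summed transcripts to genes. The deposited estimated counts were not normalized and 30.3% of the values were not whole, so they were rounded. The TPM values deposited by the authors are scaled for transcript length and library size to a total of 1e+06 and were used to rank Sult1e1 and for limma. Columns were matched to samples by the mouse number that opens each title. Symbols were found for 35856 of 36558 genes.

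Sets were the highest and lowest 18 of 73 male libraries. They were compared with edgeR 4.0.16 (R 4.3.3; TMM scaling, filterByExpr with a minimum count of 10, quasi-likelihood test), with Benjamini-Hochberg adjustment over all genes but Sult1e1 and a threshold of 0.05. The test was checked on data simulated without strain structure and with the spread of the most variable genes capped, so those genes are not represented. It recovered 48% of log2 changes of 0.5 and 78.8% of log2 changes of 1, with 6 false calls. The study's methods used limma with strain and sex as terms. Strain is kept here as a block for comparisons between the sexes, and limma 3.58.1 on log2(TPM + 1) and DESeq2 1.42.0 were alternatives. CPM values were TMM-scaled over all libraries. Single values were compared with permutation tests (1e+05 resamples). Each library is 1 mouse as far as the labels tell. In comparisons of the sets, p-values measure the spread between libraries, which mixes strain and mouse, and related lines count as independent. With strain as a block, p-values measure how the difference between the sexes varies between strains. Intervals and floors (3 counts) cover counting error only.

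The members and gene lists were chosen with earlier results of these data known. Genes named were the 12 with the smallest p and the 5 with the largest fold change in each direction, among called genes with a mean of at least 1 CPM and an ordinary symbol (no Gm or Rik names), the 4 members of each list with the smallest p, all members of the lists on sulfonation, sulfotransferases, sex steroids and receptors, and Tph2, Lipf and Tm4sf19. One member of these lists is not reported here. Other names were added after their values were seen. Promoters were taken from RefSeq (GRCm38.p6) by symbol, and all 4 looked up were found.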

Additional observations from a re-analysis of the deposited data

Results flagged for a closer look

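Il1rl2, the interleukin-36 receptor, was the 1 of 17450 genes whose difference between high and low strains itself differed between the sexes (male minus female log2 difference 0.83 ± 0.12, SE, adjusted p = 0.0023, edgeR with strain as a block). At an unadjusted p under 0.05, 286 genes had a positive and 238 a negative interaction. In the 18 male libraries of each set it ranged from 14.7 to 39.5 CPM (median 29.1) in the high set and from 7.71 to 32.2 CPM (median 13.7) in the low set, a log2 fold change of 0.85. In females, which 15 of the 18 strains of each set had, it ranged from 12.3 to 31.5 CPM (median 20.6) and from 9.97 to 30.5 CPM (median 17.9), a log2 difference of 0.23 that did not pass (adjusted p = 0.43, edgeR). The interaction was fitted on the 15 strains of each set with both sexes, so it is not the difference of the 2 fold changes above. The male sets were chosen by male Sult1e1, which the male values share with the rule. Il1r2 had an interaction of 1.74 that did not pass (adjusted p = 0.15, edgeR).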

How the results depend on the processing

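Counts of genes higher and lower in males changed by over 1.5 times, in at least 1 direction, as follows. DESeq2 gave 237 and 307, limma on log2(TPM + 1) 1921 and 7, limma on log2(TPM + 0.1) 1925 and 8, and library totals 212 and 42. Sets ranked by CPM gave 15 and 2, sets of 24 libraries each 18 and 10, and all males in 3 levels 164 and 184. The strain family as a term gave 49 and 14, BXD strains alone 11 and 1, and adipocyte genes as a term 216 and 151. Of alternatives chosen after seeing the data, the family with TyJ and RwwJ divided gave 1 and 0. The mouse number, also chosen then and lower on the whole in the low set, gave 32 and 16. Of the same alternatives, progenitor markers gave 10 and 10, thermogenic genes 38 and 1, and leaving out CXB11/HiAJ 76 and 37. Leaving out the 6 muscle-rich libraries gave 76 and 7, and strains with both sexes 232 and 1.2e+02, both also chosen after seeing the data. In females DESeq2 called 18 higher and 44 lower. Genes resting on few libraries changed sign: Vcp-rs (-0.060 with DESeq2), Rpl17-ps5 (-0.67 with DESeq2, -0.42 in BXD strains), Ftl1-ps1 (-0.38 and -0.19) and Mup9 (0.017 with DESeq2, 0.031 with limma on log2(TPM + 0.1), 0.62 in BXD strains). The cause was not tested. Among the called genes that were named, most of them picked for a small p or a large fold change, calls were otherwise kept in 546 cases and lost in 310. The other called genes are not in this count. Without the replicate block of strain, which pairs male and female libraries, the Sult1e1 log2 difference between the sexes was -8.71 and its call was unchanged. With 1 library per strain and sex, differences between mice of a strain cannot be told apart from strain.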
